A study of Mus musculus with 2 samples.

Results

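The T cell checkpoint and exhaustion genes described here were 9 genes chosen by symbol, of 27998 genes listed in the files. No measured value was used as a limit for the choice, but earlier results of these data were known when it was made. They comprised 5 inhibitory receptors (*Pdcd1*, *Lag3*, *Tigit*, *Havcr2* and *Ctla4*), 1 transcription factor (*Tox*) and 3 costimulatory receptors (*Icos*, *Tnfrsf9* and *Tnfrsf18*). They were read in single-cell RNA sequencing (scRNAseq) of brain leukocytes, sorted by flow cytometry for CD45, from untreated C57Bl/6 mice at postnatal day 21. One library held pooled cells of WT littermates (galc+/+) and one held pooled cells of twi mice (galc-/-). The twi (twitcher) mouse lacks working galactosylceramidase in all its cells and is a model of globoid cell leukodystrophy, a demyelinating disease of the central nervous system. Both libraries shared the strain, age, tissue, sort and absence of treatment, and each pooled a few animals because of low cell numbers. With 1 library per genotype there was no replicate check, so no test between genotypes was possible, a difference between genotypes cannot be told apart from a difference between libraries, and every interval below is a 95% exact interval that covers counting error only.

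A naive T cell needs a signal through its antigen receptor together with costimulation, for which ICOS and the TNF receptor family members encoded by *Tnfrsf9* (CD137) and *Tnfrsf18* (GITR) are inducible receptors. Activation also induces inhibitory receptors that limit the response: PD-1 (*Pdcd1*) binds PD-L1 and PD-L2, CTLA-4 competes with CD28 for CD80 and CD86, LAG-3 binds MHC class II, TIGIT binds the poliovirus receptor family, and TIM-3 (*Havcr2*) has galectin-9 and CEACAM1 among its ligands. When antigen persists, CD8+ T cells can carry several of these receptors at once under the transcription factor TOX, a state called exhaustion, so a single receptor marks recent activation as well as exhaustion. Several of these genes are not restricted to exhausted cells: regulatory T cells carry CTLA-4, ICOS and GITR, and microglia and macrophages carry TIM-3 and *Lag3* transcripts.

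Barcodes with at most 15% mitochondrial UMIs (unique molecular identifiers, each standing for 1 captured transcript) were kept, which left 1271 WT barcodes with a median of 2222 UMIs and 1207 twi barcodes with a median of 3182 UMIs, and the libraries shared 0 barcodes. *Galc* had 4 WT and 8 twi UMIs, but the 3′ end that was counted does not read the twi mutation, so it checks nothing about the labels. *Xist*, transcribed from the inactive X chromosome, was seen in 0 WT barcodes and in 47.6% of twi barcodes, and in 65.3% of the twi effector-like CD8+ T cells, so the genotype and the sex of the pooled animals cannot be fully told apart. RNA of other cells was present at a low level in every class: 4 neutrophil genes together had 4.39 UMIs per naive-like CD8+ T cell of WT and 1.37 per cell of twi.

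Cells were assigned by marker UMIs, leaving out T and natural killer (NK) cells with 3 or more UMIs of B cell, monocyte or neutrophil markers. CD8+ T cells had *Cd3* and *Cd8a* or *Cd8b1* UMIs and no *Cd4*, and numbered 101 of the WT barcodes and 431 of the twi barcodes. They were split into naive-like cells (71 WT, 78 twi), effector-like cells (17 WT, 291 twi), cycling-like cells (4 WT, 32 twi) and unresolved cells (9 WT, 30 twi). CD4+ T cells numbered 45 and 71, γδ-like T cells 8 and 47, and NK-like cells 66 and 60. Genes that were not used for the assignment differed between the classes in the direction of their names. In the twi library, *S1pr1* was seen in 52.6% of naive-like and 14.1% of effector-like CD8+ T cells, *S100a6* in 10.3% and 70.1%, and *Stmn1* in 90.6% of cycling-like cells. The γδ-like cells were gated on *Cd163l1*, *5830411N06Rik*, *Sox13* and *Il23r*, and 51.1% of them had *Blk* and 66.0% *Maf*, against 1.72% and 9.62% of effector-like cells. T cell receptor genes were not used here, and *Cd163l1* was also seen in 11.3% of the twi effector-like cells.

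All 9 genes were detected in both libraries, at low levels. In the WT and twi libraries, respectively, *Pdcd1* had 17 and 100 UMIs, *Lag3* 57 and 81, *Tigit* 1 and 11, *Havcr2* 17 and 25, *Ctla4* 20 and 63, *Tox* 79 and 209, *Icos* 84 and 218, *Tnfrsf9* 26 and 127, and *Tnfrsf18* 149 and 480. The twi library held more T cells, so these totals mix cell numbers and level per cell, which cannot be told apart in a total, and the classes are compared below in CPM, the UMIs of the gene for each 1000000 UMIs of the class. Since 3′ counting takes each transcript once, CPM does not scale with gene length. Among the 11636 genes with a UMI in twi effector-like CD8+ T cells, whose median was 15.4 CPM, *Tnfrsf18* was above 86.6% of genes and *Tox* above 81.5%, whereas *Pdcd1* and *Lag3* lay near the middle at 52.3% and 53.5% and *Tigit* at 10.9%.

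**Figure D1:**
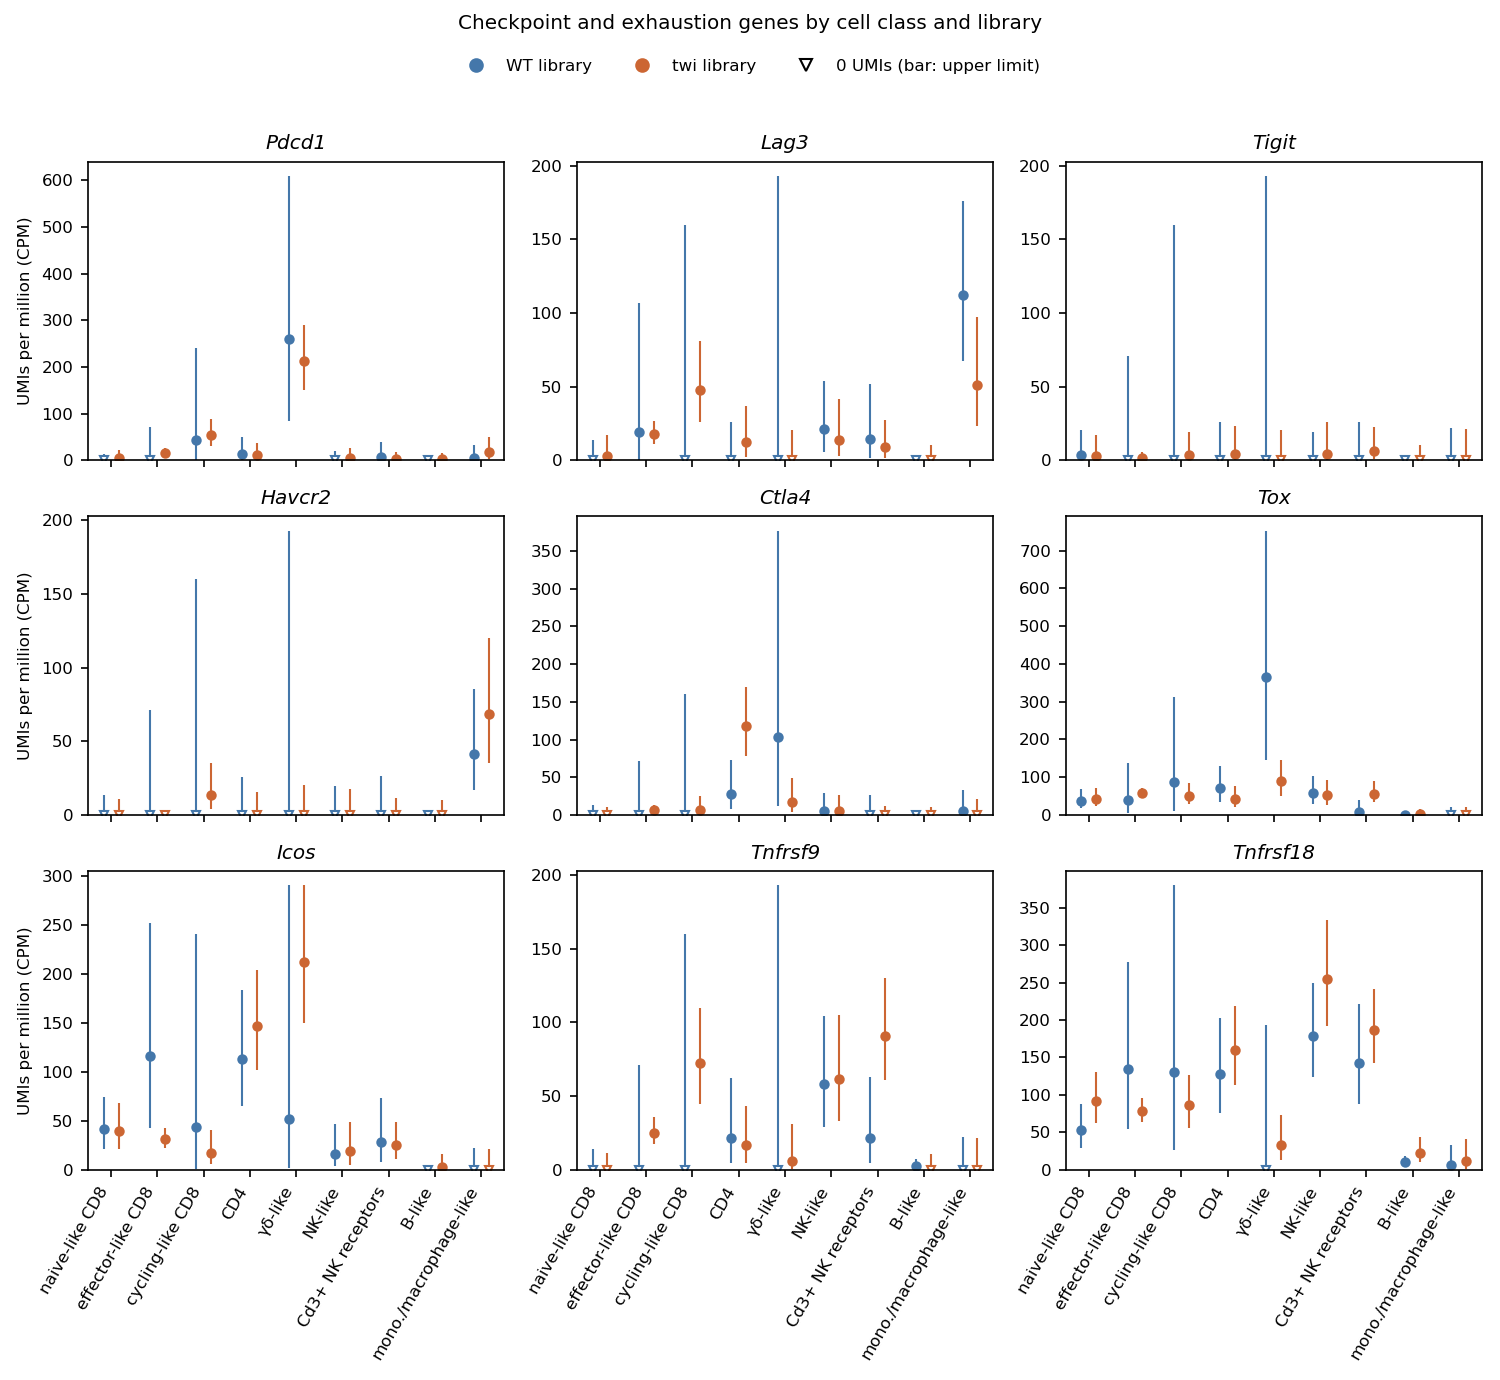
Level of each gene in CPM (y axis, linear) in each cell class (x axis) for the WT (blue) and twi (orange) libraries; points are CPM of the summed UMIs, bars are 95% exact Poisson intervals and open triangles mark 0 UMIs. Pdcd1 and Icos were highest in twi at 212 CPM in γδ-like T cells, Ctla4 in twi CD4+ T cells at 118 CPM, Tnfrsf18 in twi NK-like cells at 255 CPM, and Havcr2 and Lag3 had their largest WT values in monocyte or macrophage-like cells.

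*Pdcd1* (ENSMUSG00000026285, chr1:94038305-94052553, minus strand, mm10) encodes PD-1, and *Havcr2* (ENSMUSG00000020399, chr11:46454935-46481255, plus strand) encodes TIM-3. Their 250 bases upstream of the annotated start are shown because their highest levels were in different classes, *Pdcd1* in γδ-like T cells and *Havcr2* in monocyte or macrophage-like cells. Their classes overlapped, since both had UMIs in cycling-like and in monocyte or macrophage-like cells of twi. The sequences are from RefSeq (GRCm38.p6), 5′ to 3′ on the strand of the gene, and capitals mark the core of the motif bound by NFAT (GGAAA or its complement TTTCC) or by AP-1 (TGANTCA).
Pdcd1 (chr1:94052554-94052803, minus strand): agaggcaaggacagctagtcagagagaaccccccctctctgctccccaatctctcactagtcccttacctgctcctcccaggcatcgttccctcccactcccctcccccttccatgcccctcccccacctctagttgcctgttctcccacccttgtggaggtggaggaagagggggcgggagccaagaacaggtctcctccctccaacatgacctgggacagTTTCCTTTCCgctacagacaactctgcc
Havcr2 (chr11:46454681-46454930, plus strand): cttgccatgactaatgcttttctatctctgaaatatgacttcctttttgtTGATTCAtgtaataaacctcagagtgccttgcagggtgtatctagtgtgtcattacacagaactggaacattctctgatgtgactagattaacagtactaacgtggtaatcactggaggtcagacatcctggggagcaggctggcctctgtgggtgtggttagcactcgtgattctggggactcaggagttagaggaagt
The *Pdcd1* window held 2 GGAAA matches and 0 TGANTCA matches, and the *Havcr2* window 0 GGAAA matches and 1 TGANTCA match. On either strand GGAAA was present in 55.6% of 32851 mouse promoter windows of this length and TGANTCA in 6.75%, and 21.4% held 2 or more GGAAA matches. A match is a description of the letters in this window and not a binding site. A window was found for 6 of the 9 genes.

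In CD8+ T cells, *Pdcd1* UMIs came almost all from twi and from few cells, with the highest share in cycling-like cells. Naive-like cells had 0 UMIs in WT and 2 in twi, effector-like cells 0 in WT and 21 in twi, and cycling-like cells 1 in WT (4 cells) and 16 in twi. In twi this came to 6.09 CPM in naive-like cells, 17 CPM (interval 10.5 to 26.0) in effector-like cells and 55.0 CPM (interval 31.4 to 89.3) in cycling-like cells. The effector-like UMIs came from 12 of 291 cells (4.12%), with up to 6 in 1 cell, so they were not spread evenly over the class. The cycling-like UMIs came from 8 of 32 cells (25.0%). Thinned to 1000 UMIs per cell the shares were 1.75% and 6.25%, with 0 of 145 twi B-like cells (upper limit 2.51%), which should lack *Pdcd1*. The effector-like share (interval 0.572 to 4.05) lay below that limit, so it could not be told apart from that of B-like cells. Before thinning 0.680% of the B-like cells had a UMI (median depths of effector-like, cycling-like and B-like cells 3874, 8718 and 2202 UMIs).

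The highest *Pdcd1* level was outside the CD8+ T cells. In γδ-like T cells it was 261 CPM (5 UMIs in 4 of 8 cells, interval 84.8 to 609) in WT and 212 CPM (38 UMIs in 19 of 47 cells, interval 150 to 291) in twi, so its level there did not differ between the libraries beyond counting error (twi over WT 0.812, interval 0.319 to 2.64). In twi these 47 cells held 38.0% of all *Pdcd1* UMIs in the library. The γδ-like level was 3.85 times that of cycling-like (interval 2.1 to 7.40) and 12.5 times that of effector-like CD8+ T cells (interval 7.13 to 22.4). Thinned to 1000 UMIs per cell the latter ratio was 7.08 (interval 2.24 to 22.9), and 17.4% of γδ-like and 1.75% of effector-like cells had a UMI. Among cells with a Y transcript and no *Xist* it rested on 1 and 2 UMIs (2.11, interval 0.0357 to 40.5). The levels of the other classes in twi (monocyte or macrophage-like 17.2 CPM, CD4+ 12.6 CPM, NK-like 4.72 CPM, B-like 2.79 CPM) rested on 1 to 3 UMIs each and could not be told apart from their neighbours in this order.

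*Lag3* (ENSMUSG00000030124, chr6:124904361-124911705, minus strand, next to *Cd4*) had a similar order within twi CD8+ T cells. Naive-like cells had 1 UMI (3.05 CPM), effector-like cells 22 UMIs in 17 of 291 cells (17.8 CPM, interval 11.2 to 27.0) and cycling-like cells 14 UMIs in 8 of 32 cells (48.1 CPM, interval 26.3 to 80.8). In contrast to *Pdcd1*, *Lag3* was found in 0 of 47 twi γδ-like cells (upper limit of the share 7.55%), and γδ-like and effector-like levels were not distinguishable at this depth (ratio 0, interval up to 1.26). It was found in 0 B-like cells of either library. NK-like cells had 4 UMIs in WT and 3 in twi.

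Outside T cells, *Lag3* was found in macrophage-like cells, and its CPM was lower in twi among barcodes with both monocyte or macrophage markers and microglia genes. Monocyte or macrophage-like cells, with at least 3 UMIs of *Csf1r*, *C1qa*, *C1qb*, *C1qc*, *Cd68* and *Adgre1* and no *Cd3*, had 112 CPM in WT (19 UMIs in 13 of 39 cells, interval 67.7 to 176) and 51.5 CPM in twi (9 UMIs in 4 of 38 cells, with 6 in 1 cell), a ratio of 0.457 (interval 0.182 to 1.06), where 3.67% of all genes were at least 2-fold lower with an interval below 1 and 2.58% higher. Barcodes with these markers were then split by the microglia genes *Tmem119*, *P2ry12*, *Fcrls*, *Gpr34* and *Siglech*, whatever other markers they carried, a split made after the levels were seen. With at least 2 of these genes, *Lag3* was at 427 CPM in WT (45 UMIs in 23 of 28 barcodes, interval 311 to 571) and at 173 CPM in twi (19 UMIs in 10 of 17 barcodes, interval 104 to 270), a ratio of 0.406 (interval 0.224 to 0.708). Without them *Lag3* had 0 UMIs in 39 WT and 55 twi barcodes. Of all 3470 genes with at least 10 UMIs in the comparison of barcodes with microglia genes, 6.60% were at least 2-fold lower in twi with an interval below 1 and 5.39% higher. These barcodes had median depths of 3230 UMIs in WT and 6135 UMIs in twi, and *Cd3* was not excluded. The part of depth and of RNA from other cells in the *Lag3* ratio was not tested.

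*Havcr2* was found in CD8+ T cells only as 4 UMIs in 3 of the 32 twi cycling-like cells (13.8 CPM, interval 3.75 to 35.2). The 291 effector-like cells had 0 (3 cells would be 1.03%), too few UMIs in all for a ratio, and the other T and NK classes of both libraries had 0 UMIs. All 3 *Havcr2*+ cells also had *Pdcd1* UMIs and 2 had *Lag3* UMIs, but they were deep (median 16827 UMIs against 8226 in the other cycling-like cells) and 1 of them had a UMI of a monocyte marker. In monocyte or macrophage-like cells *Havcr2* was at 41.4 CPM in WT (7 UMIs in 7 cells) and 68.6 CPM in twi (12 UMIs in 8 cells), a ratio of 1.66 (interval 0.601 to 4.96). Unlike *Lag3*, it was also present in barcodes without microglia genes, at 14.5 CPM in WT and 22.2 CPM in twi, and with microglia genes it was at 104 CPM and 118 CPM.

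**Figure D2:**
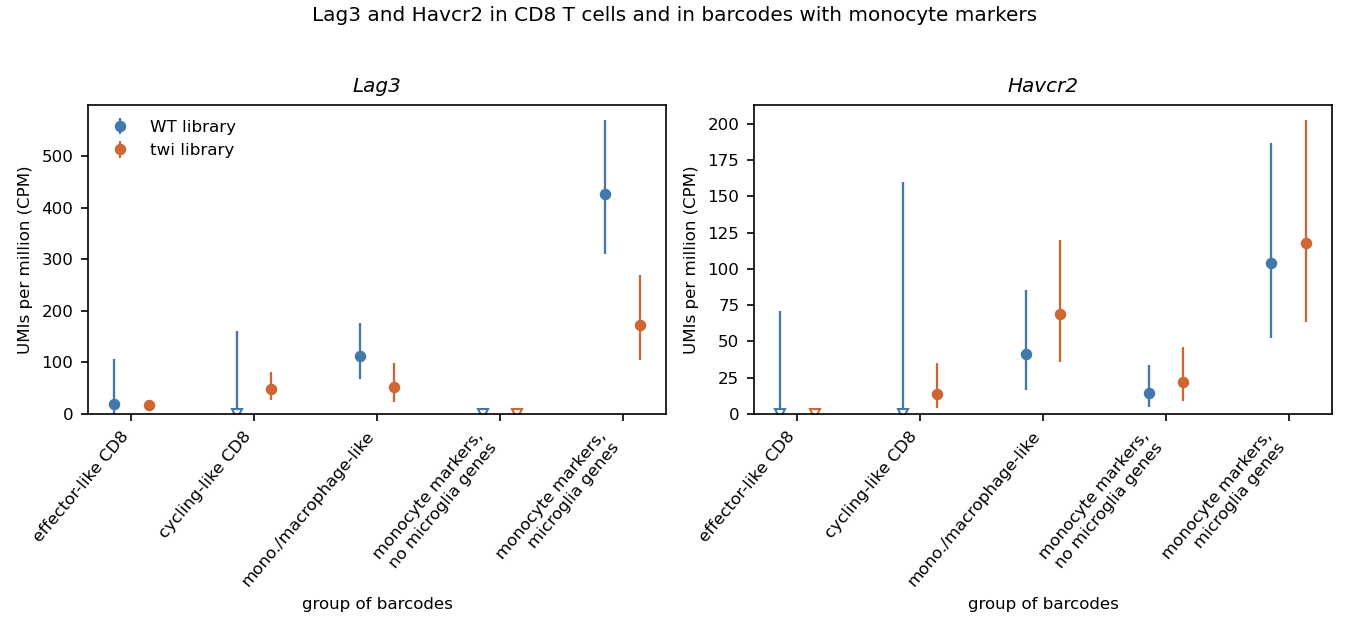
CPM of Lag3 (left) and Havcr2 (right) on linear y axes in 2 CD8+ T cell classes and in 3 groups of barcodes with monocyte or macrophage markers (x axis), for WT (blue) and twi (orange); bars are 95% exact Poisson intervals and open triangles mark 0 UMIs. Lag3 was at 427 CPM in WT and 173 CPM in twi barcodes with microglia genes and at 0 in those without, whereas Havcr2 was at 104 and 118 CPM with microglia genes and at 14.5 and 22.2 CPM without.

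*Ctla4* (ENSMUSG00000026011, chr1:60887000-60915832, plus strand) had its highest twi level in CD4+ T cells, which held 44.4% of its UMIs in that library and 20% in WT. They had 28.3 CPM in WT (4 UMIs in 4 of 45 cells, interval 7.72 to 72.6) and 118 CPM in twi (28 UMIs in 11 of 71 cells, up to 8 in 1 cell, interval 78.2 to 170), a ratio of 4.15 (interval 1.45 to 16.3). With T cells that carried other markers kept the ratio was 2.11 (interval 1.04 to 4.61, 11 and 34 UMIs), with no UMI of other markers allowed it was 4 (interval 0.569 to 174) and among cells with a Y transcript and no *Xist* 22.5 (interval 3.37 to 955). The composition of the class also differed, since cells with fewer than 2 naive markers were 3 of 45 in WT and 31 of 71 in twi, where they held 14 of the 28 UMIs. In the cells with more naive markers *Ctla4* was at 29.9 CPM in WT (4 UMIs, interval 8.14 to 76.5) and 97.7 CPM in twi (14 UMIs, interval 53.4 to 164). Within twi the CD4+ level was 7.03 times that of γδ-like (interval 2.17 to 36.1) and 16.1 times that of effector-like CD8+ T cells (9 UMIs, 7.29 CPM, interval of the ratio 7.40 to 38.8). Naive-like CD8+ T cells of both libraries had 0 *Ctla4* UMIs, and the 8 WT γδ-like cells had 2 (104 CPM, above the WT CD4+ level). At equal depth the shares of CD4+ T cells with a UMI were 2.27% in WT and 4.35% in twi, or 1 and 3 cells, a ratio of 1.91 (interval 0.154 to 100).

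The CD4+ cells that carried *Ctla4* differed in *Foxp3*, the transcription factor of regulatory T cells. *Foxp3* was seen in 5 WT and 3 twi CD4+ T cells, and in 3 of 4 *Ctla4*+ cells in WT but 0 of 11 in twi. With *Il2ra* and *Ikzf2* added as markers, 4 of 4 and 5 of 11 *Ctla4*+ cells carried at least 1 of the 3 genes. In CD4+ T cells without *Foxp3* UMIs, *Ctla4* was at 8.41 CPM (1 UMI) in WT and 123 CPM (28 UMIs) in twi. A *Foxp3* transcript can be missed at a median of 2933 UMIs per twi CD4+ T cell, so a cell with 0 UMIs is not shown to lack it.

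*Tigit* (ENSMUSG00000071552, chr16:43648867-43664146, minus strand) was too rare to compare. Its only WT UMI was in a naive-like CD8+ T cell, and twi CD8+ T cells had 4 UMIs in 4 of 431 cells (2.01 CPM, interval 0.546 to 5.14). No γδ-like cell of either library had a UMI.

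*Tox* (ENSMUSG00000041272, chr4:6686353-6991557, minus strand) encodes a transcription factor that is needed for the exhausted state. In twi it lay between 42.0 CPM (CD4+ T cells) and 89.3 CPM (γδ-like cells) in every T and NK class, and no neighbouring classes in this order differed beyond counting error. Naive-like CD8+ T cells had 37.6 CPM in WT and 42.6 CPM in twi. Effector-like cells had 38.5 CPM (2 UMIs) and 57.5 CPM (71 UMIs in 50 of 291 cells), and cycling-like cells had 51.6 CPM in twi. Over all CD8+ T cells the levels were 40.1 CPM and 53.7 CPM, a ratio of 1.34 (interval 0.776 to 2.47). The CD4+ level in twi was 15.1 times that of B-like cells (interval 2.14 to 653), which had 1 *Tox* UMI in each library, and monocyte or macrophage-like and neutrophil-like cells had 0.

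In 2 smaller groups *Tox* differed between libraries, in opposite directions. The γδ-like cells had 366 CPM in WT (7 UMIs in 7 of 8 cells, interval 147 to 753) and 89.3 CPM in twi (16 UMIs in 11 of 47 cells), a ratio of 0.244 (interval 0.0951 to 0.702). *Cd3*+ cells that had neither *Cd4* nor *Cd8* but at least 2 NK marker genes (NK receptor genes or *Eomes*) are called *Cd3*+ cells with NK receptors. They had 7.15 CPM in WT (1 UMI in 41 cells) and 56.2 CPM in twi (18 UMIs in 14 of 74 cells), a ratio of 7.86 (interval 1.24 to 328). Among all genes with at least 10 UMIs, 3.09% were at least 2-fold lower in twi γδ-like cells with an interval below 1 and 0.638% higher with an interval above 1. In the *Cd3*+ cells with NK receptors 1.97% were higher and 2.92% lower. *Tox* reached 10 UMIs in this group only through twi, where it was high.

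*Icos* (ENSMUSG00000026009, chr1:60977927-61000320, plus strand), 62095 bases downstream of *Ctla4*, was highest among the ordered classes in γδ-like and CD4+ T cells in twi and in effector-like CD8+ and CD4+ T cells in WT. Outside this order, *Cd3*+ cells without *Cd4*, *Cd8* or NK receptors had 115 CPM in WT (22 UMIs) and 109 CPM in twi (50 UMIs). In γδ-like cells it had 1 UMI in WT (52.2 CPM) and 38 UMIs in 21 of 47 cells in twi (212 CPM, interval 150 to 291). In CD4+ T cells it was at 113 CPM in WT (16 UMIs in 9 of 45 cells) and 147 CPM in twi (35 UMIs in 20 of 71 cells), a ratio of 1.30 (interval 0.699 to 2.51). In twi the γδ-like level was 6.89 times (interval 4.28 to 11.1) and the CD4+ level 4.77 times (interval 2.93 to 7.76) that of effector-like CD8+ T cells, and γδ-like and CD4+ levels did not differ from each other beyond counting error. Naive-like CD8+ T cells had 41.4 CPM in WT and 39.6 CPM in twi. At equal depth 19.6% of γδ-like, 11.6% of CD4+ and 4.56% of effector-like twi cells had a UMI, and B-like cells had 0 UMIs in WT and 1 in twi.

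Effector-like CD8+ T cells had less *Icos* in twi: 116 CPM in WT (6 UMIs in 4 of 17 cells, up to 3 in 1 cell, interval 42.4 to 252) and 30.8 CPM in twi (38 UMIs in 33 of 291 cells, interval 21.8 to 42.3), a ratio of 0.266 (interval 0.112 to 0.771). The WT value rested on few cells. Without the cell with most UMIs in each library the ratio was 0.473 (interval 0.149 to 2.40), and among cells with a Y transcript and no *Xist* it was 1.53 (interval 0.334 to 14.2).

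*Tnfrsf9* (ENSMUSG00000028965, chr4:150914562-150946102, plus strand) had the clearest difference between activated and naive-like cells. Naive-like CD8+ T cells had 0 UMIs in both libraries and effector-like cells 0 in WT. The twi effector-like cells had 31 UMIs in 24 of 291 cells (25.1 CPM, interval 17.1 to 35.7), at least 2.11-fold higher than in naive-like cells of the same library. Cycling-like cells in twi had 21 UMIs in 6 of 32 cells, up to 7 in 1 cell (72.2 CPM, interval 44.7 to 110). *Tnfrsf9* was not restricted to CD8+ T cells. NK-like cells had 58.0 CPM in WT and 61.4 CPM in twi, the latter 2.44 times the twi effector-like level (interval 1.17 to 4.81). *Cd3*+ cells with NK receptors had 21.4 CPM in WT (3 UMIs) and 90.6 CPM in twi (29 UMIs in 18 of 74 cells), a ratio of 4.22 (interval 1.31 to 21.7). γδ-like cells had 1 UMI in twi and 0 in WT. The shares of effector-like, cycling-like and NK-like twi cells with a UMI at equal depth were 1.75%, 9.38% and 5.0%, with 0 in twi B-like cells. For 0 of 145 B-like cells the upper limit is 2.51%, so the effector-like share could not be told apart from theirs.

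*Tnfrsf18* (ENSMUSG00000041954, chr4:156026164-156028895, plus strand), the most abundant of the 9 genes, had its highest level among the ordered classes in NK-like cells. In WT no neighbouring classes from NK-like down to CD4+ T cells in this order, effector-like CD8+ T cells among them, differed beyond counting error. Outside this order it was at 252 CPM in twi *Cd3*+ cells without *Cd4*, *Cd8* or NK receptors. In WT and twi it was at 179 CPM and 255 CPM in NK-like cells, 143 CPM and 187 CPM in *Cd3*+ cells with NK receptors, 128 CPM and 160 CPM in CD4+ T cells, 52.6 CPM and 91.4 CPM in naive-like and 135 CPM and 78.6 CPM in effector-like CD8+ T cells. None of these twi over WT ratios had an interval that left out 1. Within twi the NK-like level was 3.24 times (interval 2.28 to 4.57) and the CD4+ level 2.03 times (interval 1.36 to 2.98) the effector-like level. CD4+ T cells with fewer than 2 naive markers had 306 CPM against 62.8 CPM in those with more, a ratio of 4.87 (interval 2.25 to 11.7), and this was 1 of 4 genes with enough UMIs, against 6.05% of all genes higher and 2.35% lower. *Tnfrsf18* reached 10 UMIs only through the cells with fewer naive markers (29 and 9 UMIs), where it was high, so this count is a description only. The γδ-like cells had 0 UMIs in WT and 6 UMIs in 5 of 47 cells in twi (33.5 CPM). That was 0.426 times the effector-like level (interval 0.153 to 0.961) and not distinguishable from the 22.3 CPM of B-like cells. B-like cells with a *Tnfrsf18* UMI were 2.26% in WT and 5.44% in twi.

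The largest difference of *Tnfrsf18* between libraries was in *Cd3*+ cells without *Cd4*, *Cd8* or NK receptors, which had 57.6 CPM in WT (11 UMIs in 11 of 87 cells) and 252 CPM in twi (116 UMIs in 59 of 162 cells, up to 16 in 1 cell), a ratio of 4.37 (interval 2.36 to 9.01). *Tnfrsf9* was also higher in the twi cells of this group (10.5 CPM and 43.4 CPM, 2 and 20 UMIs, ratio 4.15, interval 1.01 to 36.6), which made 2 of 5 genes with enough UMIs, against 3.56% of all genes higher and 2.21% lower. *Tnfrsf9* reached 10 UMIs only through twi, where it was high, so this count is a description only. *Pdcd1* had 6 UMIs in the WT and 2 in the twi cells of this group. The group was set by the absence of markers, so it can hold CD4+ and CD8+ T cells whose markers were not captured.

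The comparison within twi of effector-like with naive-like CD8+ T cells asks which of these genes marked activated cells. Of the 9 genes, 6 had at least 10 UMIs over both classes, and 3 of them (*Pdcd1*, *Lag3* and *Tnfrsf9*) were at least 2-fold higher in effector-like cells, as were 15.2% of all 7987 genes so counted, while 0 were lower, as were 6.21% of all genes. Only *Tnfrsf9* had an interval above 1, against 5.41% of all genes, and for *Pdcd1* (2.79, interval 0.683 to 24.6) and *Lag3* (5.85, interval 0.946 to 242) the naive-like counts of 2 and 1 UMIs were too low to bound the ratio. *Tox* (1.35), *Icos* (0.778) and *Tnfrsf18* (0.860) had intervals that included 1. The median log2 ratio of the 6 genes was 0.79 (0.95 with classes at 0 set to 3 UMIs) and that of all genes 0.06. *Pdcd1*, *Lag3* and *Tnfrsf9* reached 10 UMIs only through effector-like cells, where they were high, so these counts and the median are descriptions only. In WT, 3 genes could be compared and none had an interval that left out 1, at 4.82% of all genes higher and 0.895% lower.

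Cycling-like cells exceeded effector-like cells of the twi library in 3 of the 7 genes with enough UMIs: *Pdcd1* (ratio 3.23, interval 1.58 to 6.5), *Lag3* (2.70, interval 1.28 to 5.52) and *Tnfrsf9* (2.87, interval 1.57 to 5.17). Of all 8033 genes, 7.63% did so and 2.94% were lower. *Tox* (0.897), *Icos* (0.558), *Ctla4* (0.943) and *Tnfrsf18* (1.09) had intervals that included 1, and the median log2 ratio of the 7 genes was 0.16 (0.13 with classes at 0 set to 3 UMIs) against 0.11 over all genes. The cycling-like cells were deeper than the effector-like cells, with medians of 8718 and 3874 UMIs, and had more UMIs of 4 monocyte genes per cell (3.16 and 1.66). Without the 1% of barcodes with most UMIs in each library, *Lag3* stayed above 1 (3.44, interval 1.51 to 7.41), whereas *Pdcd1* (2.30, interval 0.824 to 5.60) and *Tnfrsf9* (1.78, interval 0.706 to 3.95) did not. With no UMI of other markers allowed *Lag3* was at 5.10 (interval 1.55 to 15), *Pdcd1* at 1.56 (interval 0.169 to 6.99) and *Tnfrsf9* at 1.04 (interval 0.0237 to 7.49). Thinned to 1000 UMIs per cell each gene had under 10 UMIs and *Pdcd1* was at 2.54 (interval 0.258 to 13.4), *Lag3* at 2.97 (interval 0.293 to 16.6) and *Tnfrsf9* at 7.13 (interval 1.41 to 33.1). Among cells with a Y transcript and no *Xist* they were at 1.75, 10.5 and 0 on 1 to 4 UMIs in all, each with an interval that included 1. The part of cell doublets in these ratios was not tested.

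Against effector-like CD8+ T cells, the twi γδ-like cells were higher in *Pdcd1* and *Icos* and lower in *Tnfrsf18*, each with an interval that left out 1, of 7 genes with enough UMIs. The corresponding shares over 7868 genes were 6.98% higher and 2.53% lower, and the median log2 ratio was 0.67 (0.63 with classes at 0 set to 3 UMIs) against 0.22. *Ctla4* (2.30), *Tox* (1.55) and *Tnfrsf9* (0.222) had intervals that included 1. CD4+ T cells were higher than effector-like cells in 3 of 7 genes (*Ctla4*, *Icos* and *Tnfrsf18*), as were 4.58% of all genes (2.65% lower), with a median log2 ratio of -0.24 (-0.43 with classes at 0 set to 3 UMIs) against 0.12. NK-like cells were higher in 2 of 7 (*Tnfrsf9* and *Tnfrsf18*), as were 6.51% of all genes (2.47% lower), with a median of -0.12 (-0.33) against 0.21. *Ctla4* reached 10 UMIs only through the CD4+ T cells (28 and 9 UMIs), where it was high, so the CD4+ count is a description only. These comparisons share the effector-like cells.

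**Figure D3:**
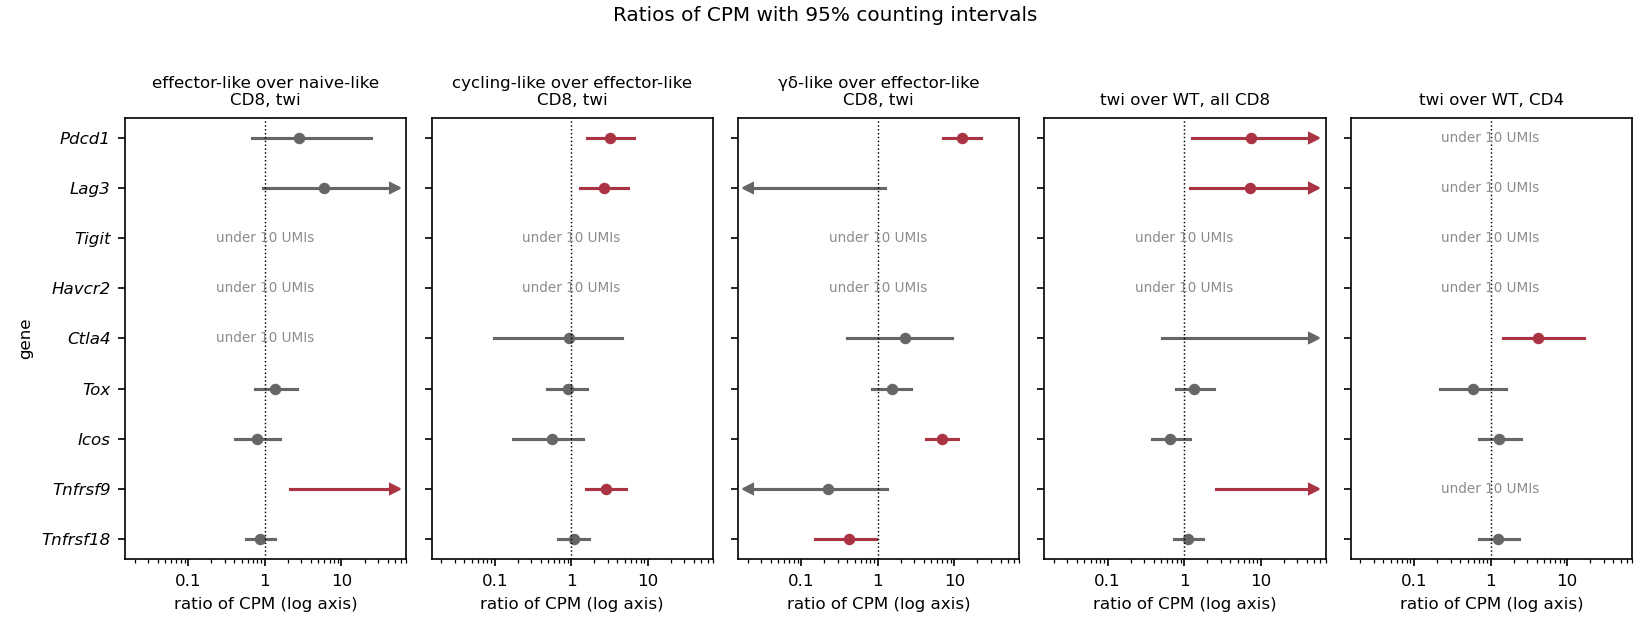
Ratio of CPM (x axis, logarithmic) for each gene (y axis) in 5 comparisons; points are ratios, lines are 95% exact conditional intervals, arrows mark bounds beyond the axis, a line without a point has 0 UMIs in 1 group, and red marks an interval that leaves out 1. Pdcd1, Lag3 and Tnfrsf9 were red in both the cycling-like over effector-like and the twi over WT all CD8+ panels, Pdcd1, Icos and Tnfrsf18 in the γδ-like panel and Ctla4 in the CD4+ panel.

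The genotypes were compared first in effector-like CD8+ T cells, of which WT held 17. Of 6 genes with enough UMIs, *Icos* was lower in twi with an interval below 1, and 2.16% of all 7560 genes were. *Pdcd1*, *Lag3* and *Tnfrsf9* had 21, 22 and 31 UMIs in twi and 0, 1 and 0 in WT. At the 51914 UMIs of the WT class these do not differ beyond counting error (the interval for *Lag3*, ratio 0.925, was 0.150 to 38.2). The median log2 ratio was -0.20 (-0.99 with classes at 0 set to 3 UMIs) and -0.13 over all genes.

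Because of the few WT cells, all CD8+ T cells were also compared, a choice made after the counts were seen. *Pdcd1* was at 2.67 CPM (1 UMI) in WT and 20.1 CPM (40 UMIs in 23 of 431 cells) in twi, a ratio of 7.50 (interval 1.27 to 304). *Lag3* was at 2.67 CPM (1 UMI) and 19.1 CPM (38 UMIs in 27 cells), a ratio of 7.13 (interval 1.20 to 289). *Tnfrsf9* had 0 UMIs in WT and 53 in 31 twi cells (26.6 CPM), at least 2.60-fold higher. These were 3 of 7 genes with enough UMIs, against 4.54% of all 8860 genes higher and 1.93% lower, and *Ctla4* (0 and 12 UMIs), *Tox*, *Icos* (0.657, interval 0.384 to 1.18) and *Tnfrsf18* (1.11, interval 0.736 to 1.74) had intervals that included 1. The median log2 ratio was 2.23, but 0.42 with classes at 0 set to 3 UMIs, and 0.12 over all genes. *Pdcd1*, *Lag3*, *Tnfrsf9* and *Ctla4* reached 10 UMIs only through twi, where they were high, so this count and median are descriptions only. Naive-like cells were 71 of 101 CD8+ T cells in WT and 78 of 431 in twi, so this comparison also holds the difference in composition. With T cells that carried other markers kept, *Lag3* had 8 UMIs in WT and the ratio was 1.19 (interval 0.553 to 2.94), whereas *Pdcd1* was at 5.11 (interval 1.33 to 43.5). Without the cell with most UMIs in each library *Pdcd1* and *Lag3* had 0 UMIs in WT, and with 3 UMIs put there the ratios were 2.11 and 2.18. Among cells with a Y transcript and no *Xist* the *Pdcd1* ratio was 3.22 (interval 0.319 to 159).

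In CD4+ T cells 4 genes had enough UMIs and *Ctla4* alone differed with an interval above 1, as did 2.67% of all 4456 genes, with 2.15% lower (median log2 ratio 0.33, 0.35 with classes at 0 set to 3 UMIs, and 0.03 over all genes). *Ctla4* (4 WT and 28 twi UMIs) reached 10 only through twi, where it was high, so this count and median are descriptions only. In naive-like CD8+ and NK-like cells 3 genes each could be compared (*Tox*, *Tnfrsf18* and, respectively, *Icos* or *Tnfrsf9*), and 0 had an interval that left out 1. Over all genes 2.16% were higher and 1.27% lower in twi naive-like cells, and 2.46% and 2.25% in NK-like cells. In cycling-like CD8+ T cells, 4 in WT, 5 genes could be compared and 0 had an interval that left out 1 (*Pdcd1* ratio 1.27, interval 0.197 to 53.3), while 1.50% of all genes were higher and 1.70% lower.

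Among the twi T, NK-like and B-like classes counted, the share of cells with an inhibitory receptor was highest in cycling-like and γδ-like cells. Monocyte or macrophage-like cells were not counted. At least 1 of the 5 was seen in 5.13% of naive-like, 12% of effector-like (interval 8.52 to 16.3) and 40.6% of cycling-like twi CD8+ T cells (interval 23.7 to 59.4), in 16.9% of CD4+ and 40.4% of γδ-like T cells, and in 0.680% of B-like cells. At 1000 UMIs per cell the shares in effector-like, cycling-like and γδ-like cells were 4.91%, 12.5% and 19.6%, with 0 in B-like cells. At least 2 were seen in 6 of 32 cycling-like cells, 3 of 291 effector-like cells, 3 of 47 γδ-like cells and 4 of 71 CD4+ T cells of twi, and in 0 cells of these classes after thinning. In cycling-like cells *Pdcd1* and *Lag3* were together in 4 cells, where the product of their shares gives 2. That product does not allow for depth. Cycling-like cells with *Pdcd1* had a median of 10448.5 UMIs and those without 7319.5 (*Lag3* 10448.5 and 8330.5). In effector-like cells the 2 genes were together in 0 cells, where that product gives 0.701. In γδ-like cells *Pdcd1* and *Icos* were together in 8 cells, where that product gives 8.49. In WT at least 1 inhibitory receptor was seen in 1 of 17 effector-like and 6 of 8 γδ-like cells.

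**Figure D4:**
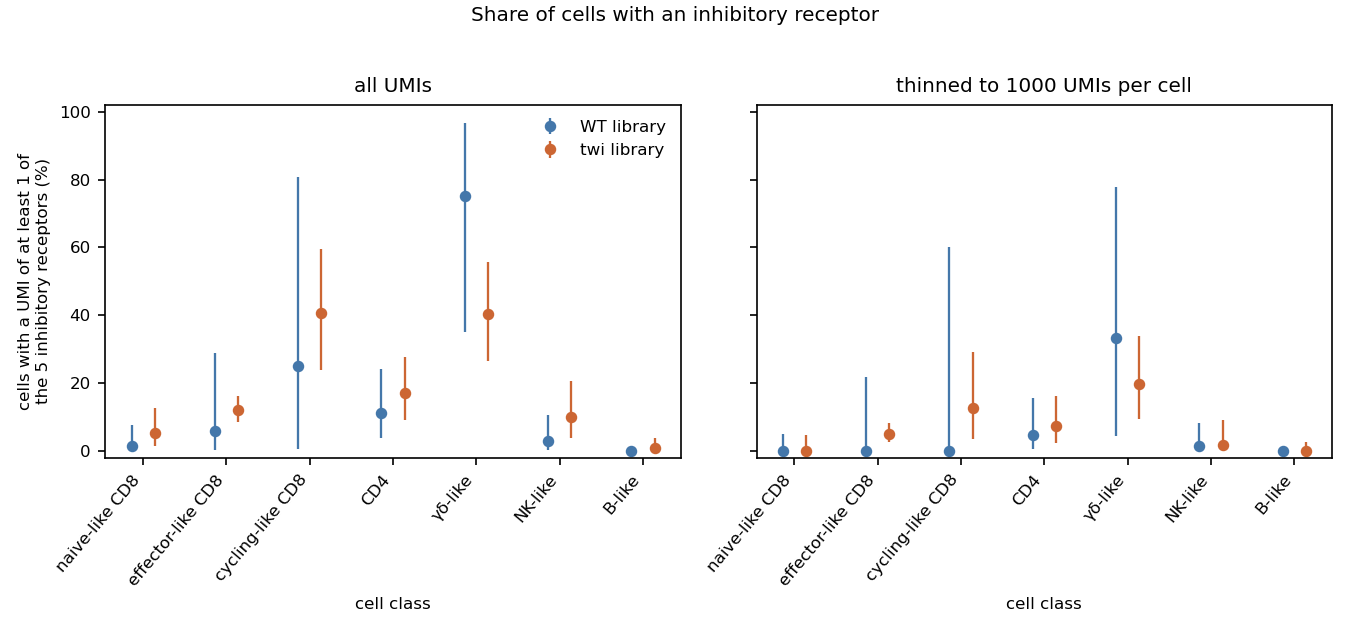
Percent of cells with a UMI of at least 1 of the 5 inhibitory receptors (y axis, linear) by cell class (x axis) in WT (blue) and twi (orange), from all UMIs (left) and after thinning to 1000 UMIs per cell (right); bars are 95% Clopper-Pearson intervals. Cycling-like and γδ-like twi cells were at 40.6% and 40.4% with all UMIs and at 12.5% and 19.6% after thinning, and effector-like twi cells at 12% and 4.91%.

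Other receptors and regulators of the same pathways were read from lists of 13 receptors and 14 transcription factors and precursor markers. Between effector-like and naive-like twi cells, 12 of the 13 receptors had enough UMIs and 4 were at least 2-fold higher with an interval above 1, as were 5.41% of all genes: *Cd160*, a receptor for HVEM on cytotoxic cells (42.6 CPM in naive-like and 232 CPM in effector-like cells, ratio 5.43, interval 3.19 to 10.1), *Cd226*, the activating counterpart of TIGIT (ratio 2.13, interval 1.35 to 3.53), *Cd38*, an ectoenzyme (ratio 3.13, interval 1.14 to 11.9), and *Cd244*, a SLAM family receptor (0 and 36 UMIs, interval from 2.47). Their median log2 ratio was -0.01. Of the 14 regulators, 11 had enough UMIs, with a median log2 ratio of 0.37. *Eomes*, a T-box factor of effector cells, was higher (ratio 3.88, interval 1.59 to 12.3), as was *Prdm1*, which encodes Blimp-1 (0 and 20 UMIs, at least 1.31-fold). *Tcf7* (457 and 103 CPM, ratio 0.225, interval 0.176 to 0.287) and *Slamf6* (ratio 0.266, interval 0.177 to 0.40), both carried by naive and precursor cells, were lower, as were 3.13% of all genes. *Cd244*, *Cd38*, *Prdm1* and *Eomes* reached 10 UMIs only through effector-like cells, where they were high, so these counts and medians are descriptions only. Between cycling-like and effector-like cells, 1 of 12 receptors with enough UMIs was higher and 1 lower by the same 2-fold and interval rule, and 0 of 10 regulators were either. Over all genes 7.63% were higher and 2.94% lower. *Btla*, another receptor for HVEM, was the higher 1 (15.4 CPM in effector-like and 37.8 CPM in cycling-like cells, ratio 2.46, interval 1.06 to 5.43). *Vsir*, which encodes VISTA, was the lower 1 (ratio 0.435, interval 0.260 to 0.691). The cycling-like cells were deeper (medians 8718 and 3874 UMIs), and the part of depth was not tested.

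Between the genotypes, twi effector-like cells had less *Cd28*, the costimulatory receptor whose ligands CTLA-4 shares (ratio 0.239, interval 0.155 to 0.382), less *Tcf7* (0.486, interval 0.262 to 0.998) and less *Nr4a2*, an early response gene of the antigen receptor (0.227, interval 0.124 to 0.446), of 11 receptors and 10 regulators with enough UMIs, and 2.16% of all genes were lower. The WT class held 17 cells, with 25 *Cd28*, 11 *Tcf7* and 13 *Nr4a2* UMIs, and these ratios were not read again under other settings. No gene of these lists was higher in twi effector-like cells with an interval above 1, as were 0.833% of all genes. Over all CD8+ T cells *Cd160* (ratio 2.20, interval 1.53 to 3.26) and *Cd244* (0 and 44 UMIs, at least 2.15-fold) were higher in twi, and *Cd28* (0.478, interval 0.383 to 0.601), *Tcf7* (0.430, interval 0.354 to 0.524) and *Slamf6* (0.422, interval 0.309 to 0.582) were lower, where 4.54% of all genes were higher and 1.93% lower. These ratios also hold the difference in composition, with naive-like cells 71 of 101 in WT and 78 of 431 in twi. *Cd244* reached 10 UMIs there only through twi, where it was high. For *Cd160*, twi over WT was 0.756 (interval 0.338 to 1.68) in naive-like and 1.20 (interval 0.645 to 2.54) in effector-like cells. In naive-like cells *Cd28* (0.824), *Tcf7* (1.02) and *Slamf6* (0.843) had intervals that included 1, and *Cd244* had 0 UMIs in both libraries. The γδ-like cells of twi, compared with effector-like cells, had more *Ikzf2* (ratio 2.58, interval 1.82 to 3.60) and less *Cd27* (0.105, interval 0.0283 to 0.271), *Cd28* (0.145, interval 0.0297 to 0.434), *Cd160* (0.289, interval 0.148 to 0.513), *Eomes* and *Id3*, where 6.98% of all genes were higher and 2.53% lower.

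The ligands of these receptors had their highest levels mostly outside the T cells. Classes with few cells, such as the WT γδ-like and cycling-like cells, were left out of this order. In WT γδ-like cells *Pdcd1lg2* and *Pvr* had 1 UMI each (52.2 CPM). *Cd86* was highest in monocyte or macrophage-like cells (124 CPM in WT, 137 CPM in twi), *Icosl* in B-like cells (61.4 CPM in twi), and *Lgals9*, which encodes galectin-9, in B-like cells (201 CPM in twi). *H2-Aa* and *H2-Ab1*, the MHC class II chains, were at 1747 and 1881 CPM in twi B-like cells. *Pvr* was highest in twi effector-like CD8+ T cells (29 UMIs, 23.5 CPM). *Pdcd1lg2*, which encodes PD-L2, was highest in WT monocyte or macrophage-like cells (6 UMIs in 2 cells, 35.5 CPM), and *Cd274*, which encodes PD-L1, in WT effector-like cells on 2 UMIs of 1 cell. *Ceacam1* (107 CPM) and *Cd80* (17.8 CPM, 3 UMIs) were highest in WT and *Nectin2* (28.6 CPM) in twi monocyte or macrophage-like cells, while *Tnfsf9* had 1 UMI in its highest class and *Fgl1* and *Tnfsf18* had 0. In monocyte or macrophage-like cells *Lgals9* was at 53.3 CPM in WT and 166 CPM in twi, and *H2-Aa* had 1 and 169 UMIs, the latter in 4 cells. Over all CD8+ T cells *Lgals9* (45.4 and 123 CPM, ratio 2.70, interval 1.65 to 4.72) and *Cd86* (8.02 and 28.1 CPM, ratio 3.50, interval 1.14 to 17.5) were higher in twi. They were 2 of 8 ligands with enough UMIs, against 4.54% of all genes higher and 1.93% lower. *Cd86* reached 10 UMIs only through twi, where it was high. These ratios also hold the difference in composition. In naive-like cells alone twi over WT was 2.36 for *Lgals9* (interval 1.16 to 5.18) and 1.62 for *Cd86* (interval 0.346 to 10.0). Between effector-like and naive-like twi cells 7 of 14 ligands had enough UMIs, and *Pdcd1lg2* was higher (0 and 18 UMIs, at least 1.17-fold), as were 5.41% of all genes. It reached 10 UMIs only through effector-like cells, where it was high.

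The genes whose levels were most like each member over the 19 class-by-library groups with at least 50000 UMIs are given as Pearson's r of log2(CPM + 10), over 5440 genes and without a test, since groups of 1 library share depth and free RNA. *Havcr2* was most like *Eno3* (0.95), *C1qb* (0.94) and *Clec4a1* (0.94), and *Ctla4* most like *Cd4* (0.84), *Cyld* (0.72) and *Anp32a* (0.68). *C1qb* and *Cd4* had been used to assign the monocyte or macrophage-like and CD4+ cells, so their order over the classes was set in part by the assignment. *Pdcd1* was most like *Cd163l1* (0.82), which had gated the γδ-like cells, *Bcl2a1b* (0.77) and *Ndufa8* (0.75). *Tox* was most like *Cd247* (0.91), *Skap1* (0.91) and *Tnik* (0.90), *Icos* like *Bcl11b* (0.91), *Lat* (0.90) and *Cd247* (0.90), and *Tnfrsf18* like *Txk* (0.93), *Gimap4* (0.91) and *Sh2d1a* (0.91). *Tnfrsf9* was most like *Chsy1* (0.85) and the genes of Fas ligand, *Fasl* (0.84), and the chemokine XCL1, *Xcl1* (0.82), and *Lag3* like *Srgap2* (0.83), *Arsb* (0.81) and *Ube2l3* (0.80). For *Tigit*, at a mean of 1.80 CPM, the values were weak (*Ddx60* 0.61, *Isg20* 0.60, *Ifit3b* 0.58).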

How the data were processed

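The data were scRNAseq profiles of pooled CD45+ brain cells, 1 library per genotype (WT and twi). The authors aligned 3′ reads with STAR, filtered them by mapping and base quality, assigned cell barcodes to a whitelist allowing 1 mismatch and called cells by an adaptive UMI threshold; the submitters' processing notes name Cell Ranger 2.1.1 and mm10. The deposited values were raw UMI counts per gene and barcode, not normalized, and 7 WT and 13 twi barcodes exceeded the limit of 15% mitochondrial UMIs and were left out here, as the study did.

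The kept UMIs were 3741477 in WT and 4791200 in twi. Classes were set by marker UMIs (at least 1 *Cd3* UMI, at least 1 *Cd8a* or *Cd8b1* UMI or at least 1 *Cd4* UMI, at least 2 UMIs of γδ genes without *Cd8b1*, at least 2 NK marker genes (NK receptor genes or *Eomes*), at least 3 cell cycle genes, at least 2 naive or effector genes and more than of the other list). B-like, neutrophil-like and monocyte or macrophage-like cells had 3 or more UMIs of their own markers and no *Cd3*. No doublet caller was run. UMIs were summed per class, given as CPM with exact Poisson intervals, compared by ratios with exact conditional intervals, and shares by Clopper-Pearson intervals, at a confidence level of 95%. A count of 0 was set to 3 UMIs where stated. With 0 UMIs in 1 group, a fold given as at least is the lower limit of the exact interval. UMIs of 1 cell are not independent, so intervals are too narrow where a few cells hold many. Genes needed 10 UMIs over both groups, medians used a prior of 0.5 UMIs, and shares were also thinned to 1000 UMIs per cell (seed 17). A gene could reach the 10 UMIs through 1 group alone, where it was high. The strand setting of the counting was not found in the labels or methods. UMIs of *Tox*, *Tnfrsf9* and *Tnfrsf18* therefore cannot be separated from overlapping genes on the other strand, nor those of *Ctla4* and *Icos* from a pseudogene or gene model on the same strand. Loci are from GENCODE vM21.

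The members, lists and cell classes were chosen with earlier results of these data known. Named genes were the 9 members, listed genes past 2-fold with an interval leaving out 1, each ligand in its highest class (classes of few cells left out) and the 3 most similar genes. *Ikzf2*, *Cd27*, *Id3*, *Foxp3*, *Il2ra* and the microglia genes were named after their values or those of the members were seen, as were the comparisons of cycling-like and γδ-like with effector-like cells, of all CD8+ T cells and of groups outside the planned classes. The methods were checked on simulated counts. These were independent counts drawn from the class sums of these data, so the check cannot show how the intervals hold where 1 cell has many UMIs. It also cannot show that the classes are right. Analyses used Python 3.11.15, numpy 2.4.6, scipy 1.17.1 and pandas 2.3.3, and alternatives were the marker limits, mitochondrial limit, thinning, weighting of cells, denominator, deepest barcodes, sex transcripts and cycling cells.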

Additional observations from a re-analysis of the deposited data

Results flagged for a closer look

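*Tox* differed between the libraries in opposite directions in 2 groups: twi over WT was 7.86 in *Cd3*+ cells with NK receptors and 0.244 in γδ-like cells. The difference between these ratios was not tested, and they rest on 1 WT UMI and on 8 WT cells.

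A member was also seen in barcodes that were left out for their mitochondrial share: *Tnfrsf18* had 4 UMIs in 3 of 13 twi barcodes above the limit and 0 in 7 WT barcodes.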

How the results depend on the processing

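Across 16 alternatives, 477 of 514 single-gene values stayed within the spread of the counts of the main value, 35 moved and 2 turned. A value within that spread can still differ in direction from the main value, and such changes were not counted. *Icos* in effector-like cells, twi over WT, went from 0.266 to 1.53 in cells with a Y transcript and no *Xist*, and *Tnfrsf9*, cycling-like over effector-like, from 2.87 to 0 there, on 4 cycling-like cells. The direction held in all alternatives with a value for *Pdcd1* in γδ-like over effector-like cells (2.11 to 16.0) and for *Ctla4* in CD4+ T cells (1.91 to 22.5).

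Of 178 counts of genes past 2-fold with an interval leaving out 1, 151 stayed and 27 moved. Effector-like over naive-like, 1 gene was higher, but 2 with no exclusion by other markers, 0 with no UMI of other markers allowed, 0 after thinning, 2 without the top cell, 0 among Y-only cells and 3 with cycling cells kept. In effector-like cells 1 was lower in twi, but 2, 0, 0, 0 and 0 in the first 5 of these. In CD4+ T cells 1 was higher, but 0 with no UMI of other markers and 0 after thinning. In all CD8+ T cells 3 were higher, but 1 with no UMI of other markers, 0 after thinning and 1 among Y-only cells. Cycling-like over effector-like, 3 were higher, but 1 with no UMI of other markers, 0 after thinning, 1 without the deepest barcodes and 0 among Y-only cells, where 1 was lower. For γδ-like over effector-like cells 2 were higher, but 1 among Y-only cells, and 1 was lower, but 0 with no UMI of other markers, 0 with 2 *Cd8* UMIs required, 0 after thinning, 0 among Y-only cells and 3 with cycling cells kept. Thinning and the Y-only choice leave fewer UMIs, and the cause was not tested for the rest.

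No paired analysis was possible because each genotype had 1 library. For the same reason no replicate was left out. Depth limits what can be said of *Tigit* and *Havcr2* in T cells and of every WT effector-like level.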
